A study of Mus musculus with 4 samples.

Results

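CTCF regions called in the posterior trunk of the mouse embryo and in no other library made up 34525 of the 121759 regions found in any of 4 peak lists, or 28.4% of them and 32.4% of the 106569 regions called in trunk. They were chosen by their calls. Peaks of the lists that shared at least 1 base were joined into union regions, and a region was kept when it held a posterior trunk peak and no peak of brain, distal forelimb or proximal forelimb. The count is therefore a description of the calls and carries no test. All 4 libraries were CTCF immunoprecipitations followed by sequencing (ChIP-seq) from wild-type (WT) embryos of the strain B6CBAF1, with 1 library per tissue. Posterior trunk, labelled E10, was pooled from E9.75 to E10 embryos, about 30 in number. The piece held tailbud, presomitic mesoderm and the last few somites, and the dissection avoided the hindlimb buds where it could. For brain, 6 telencephalons at E12.5 were pooled, and both forelimb parts were E12.5 tissue whose titles mark them as re-analysed. Trunk was thus also the only tissue at E10, so tissue and stage cannot be told apart. Peak lists hold no expression values, so the dissected tissues could not be checked against marker genes.

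CTCF is a zinc-finger protein that binds DNA through a long motif. At many of its sites it halts the cohesin complex as that complex extrudes chromatin, which places the site at the border of a chromatin domain or at the anchor of a loop. Its strongest sites are known to be occupied in most cell types, while weaker sites vary more between tissues. CTCF ChIP also recovers gene promoters, many of them without a motif match. At the Hox clusters, CTCF sites lie between genes that are switched on one after another as the body axis extends.

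Promoters give the only sequence available here, and 7 are shown to set regions called in trunk only beside regions called in every list. Each is a 150-base stretch of the promoter lying inside the CTCF region and before the gene start, written 5′ to 3′ on the gene's strand from RefSeq sequence of GRCm38.p6, the assembly of mm10. Capitals mark a match on either strand to a CTCF core motif, read as CC, any 3 bases, AG, any 2 bases and GGC. The first 3 are the leading promoters among trunk-only regions by fold, with the core motif (Afg1l, a mitochondrial ATPase) and without it (Tbce, a tubulin folding cofactor, and Ube2d1, a ubiquitin-conjugating enzyme). Zfp606, a zinc-finger gene, and Dpy30, a subunit of histone H3 lysine 4 methyltransferase complexes, are the trunk-only promoters of highest fold with a match near the summit. Zbtb33, which encodes the methyl-CpG binding protein Kaiso, and Bclaf3 are the same for regions called in all 4 tissues. These last 4 were chosen after their values were seen.
Afg1l (chr10:42478566-42478715, minus strand): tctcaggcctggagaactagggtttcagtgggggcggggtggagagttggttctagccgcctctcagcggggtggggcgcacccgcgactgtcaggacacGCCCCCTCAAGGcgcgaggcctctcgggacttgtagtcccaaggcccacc
Tbce (chr13:14039639-14039788, minus strand): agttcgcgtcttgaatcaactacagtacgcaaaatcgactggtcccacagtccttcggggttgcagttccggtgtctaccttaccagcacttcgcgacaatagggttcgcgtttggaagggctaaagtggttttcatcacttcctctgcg
Ube2d1 (chr10:71285336-71285485, minus strand): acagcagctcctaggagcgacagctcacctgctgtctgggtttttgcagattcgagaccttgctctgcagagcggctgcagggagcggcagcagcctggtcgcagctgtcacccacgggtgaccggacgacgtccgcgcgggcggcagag
Zfp606 (chr7:12478134-12478283, plus strand): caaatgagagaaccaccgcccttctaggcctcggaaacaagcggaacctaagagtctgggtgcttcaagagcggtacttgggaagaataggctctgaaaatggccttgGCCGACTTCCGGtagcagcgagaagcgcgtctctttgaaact
Dpy30 (chr17:74316486-74316635, minus strand): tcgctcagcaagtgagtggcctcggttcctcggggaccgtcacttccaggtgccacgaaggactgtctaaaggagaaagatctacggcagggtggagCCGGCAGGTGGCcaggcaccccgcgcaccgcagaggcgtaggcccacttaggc
Zbtb33 (chrX:38189643-38189792, plus strand): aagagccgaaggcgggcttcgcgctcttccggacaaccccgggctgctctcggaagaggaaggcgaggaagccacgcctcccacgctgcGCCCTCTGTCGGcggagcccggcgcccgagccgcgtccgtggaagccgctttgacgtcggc
Bclaf3 (chrX:159532444-159532593, plus strand): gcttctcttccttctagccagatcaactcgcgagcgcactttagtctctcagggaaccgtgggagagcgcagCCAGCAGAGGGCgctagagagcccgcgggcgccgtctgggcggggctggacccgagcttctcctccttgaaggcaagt

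In both shared promoters the trunk summit, the base with the most reads, lay on the match itself. In the trunk-only promoters it lay 84 bases from the match at Afg1l, 33 bases at Zfp606 and 23 bases at Dpy30. Of these matches, the one at Afg1l alone also fitted a stricter core, in which the 2 free bases after AG are both G and which is contained in the first. The authors' fold of the trunk peak, its summit reads over the local background, was 7.69 at Afg1l, 7.78 at Tbce, 7.49 at Ube2d1, 5.39 at Zfp606 and 5.22 at Dpy30. It was 19.4 at both Zbtb33 and Bclaf3.

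Trunk-only regions were narrow and mostly of low fold, with a long upper tail. The median fold was 2.93, the middle 50% of members lay between 2.52 and 3.54, and the range was 1.64 to 11.2. Folds were under 3 in 18755 members, or 54.3%, and at least 5 in 1736, or 5.03%. Each tissue is a mixture of cells, so binding in few cells and weak binding in many cannot be told apart. At the summit the median pileup was 35 fragments over a local background of 10.8, and the highest pileup was 228. Median width was 268 bases, from 200 to 1141, and 98.2% of members had a single summit. The widest member lay in Zfp143, which encodes a zinc-finger factor that binds promoters, at chr7:110060729-110061869, with a fold of 3.50. Next in width were members in Cct6b, a chaperonin gene, at 3.63, in Mtf2, a subunit of Polycomb complexes, at 2.70, 16.1 kb from 3830417A13Rik at 5.37 and in Zbtb46 at 4.65.

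Ranked within the trunk list by the authors' p, members filled the lower part and thinned out above the middle. They were 86.6% of the regions below the percentile 10, 50.9% of those between the percentiles 30 and 40, 12.2% between 50 and 60, and 1.82% between 60 and 70. Above the percentile 70 there were 14, and above 80 there were 0. At the same ranks, trunk regions shared with brain but with neither forelimb part were 4.99%, 12.7%, 9.27% and 2.60%. Rank was read from the list that chose the members, so this profile is a description only.

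**Figure D1:**
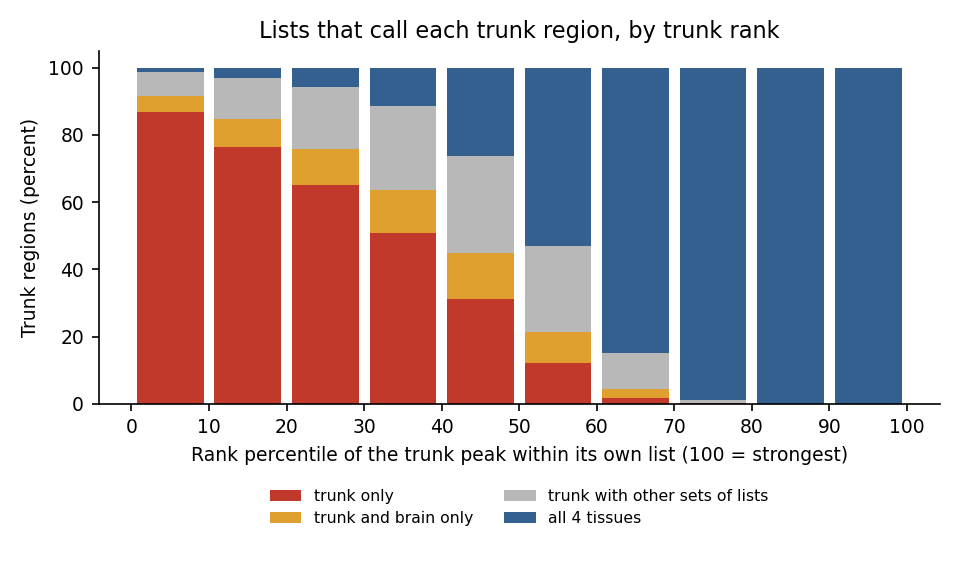
The share of trunk regions (y axis, percent) that were called in trunk only, in trunk and brain only, in other sets of lists that include trunk, or in all 4 tissues, by the rank percentile of the trunk peak in its own list (x axis, bins of 10). Trunk-only regions fall from 86.6% in the weakest bin to 1.82% between 60 and 70.

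Within 100 bases of the joining limit, the calls on both sides of the rule were alike in median fold. The 3 weakest members, in Cux1, 427 kb from Nr2f1 and in Casz1, had folds of 1.79, 1.87 and 1.98 and −log10 q values of 1.301, 1.303 and 1.304, at the lower end of the list. Only 9 members lay within 10 bases of a peak of another list and 209 within 100 bases, or 0.605%. The 3 nearest stood 1 base away, 315 kb from Brinp2, 2 bases away in Cnot6l and 3 bases away, 115 kb from Irx3. On the other side, 11 trunk peaks were joined to another list's peak by 1 to 10 bases and 211 by 1 to 100. Median folds were 2.67 for the 209 members and 2.71 for those 211 peaks. The median gap from a member to any peak of the other lists was 9009 bases.

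Sequencing depth differed between the libraries, and its part in the trunk-only count was not tested beyond the settings given here. Brain, near trunk in depth, had 7213 brain-only regions. The lowest local background, which scales with depth, was 9.34 for trunk and 8.53 for brain. In the forelimb it was 4.23 for the distal and 4.58 for the proximal part. From the recovered pileups, a member's chance of a call at the same occupancy had a median of 0.979 for brain, while the distal and proximal forelimb lists gave 0.749 and 0.778. The chance was at least 0.95 in all 3 lists for 7702 members, or 22.3%, and under 0.5 in at least one for 7409, or 21.5%. Such chances lean high, since each member was picked for passing in trunk. After pileups were thinned to the lowest background and a common −log10 p of at least 5 was applied, 19252 of 93429 regions, or 20.6%, were trunk-only, against 2429 that were brain-only. In lists cut to equal length the counts were 5456 of 84155, or 6.48%, and 4012. That cut removes the weak ranks of the longest list by construction. Both the chances and the thinning take signal to scale with the lowest background. The highest pileups, 399 in trunk, 393 in brain, 368 in distal and 365 in proximal forelimb, did not scale in that way. How far this moves the chances and the thinned counts was not tested.

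The 20 members with the highest folds had trunk folds from 9.02 to 11.2 and no peak in the other 3 lists. Their pileups ran from 96 to 187 over backgrounds of 9.34 to 19.3, and each had a chance that rounded to 1 of being called elsewhere at that occupancy. The highest, 11.2, lay in Serpina1f, a gene of the serpin protease inhibitor cluster, at chr12:103688214-103688622. Next came a member of fold 10.7 near Nrsn1, at 27.0 kb, and one of 10.5 whose nearest coding gene was the homeobox gene Irx1, 246 kb away. None of these 3 had a shared region closer than 15.7 kb.

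Of the 20, 9 lay inside protein-coding genes. They were in Serpina1f, Rbms3, an RNA-binding protein gene, Agbl1, Cpa6, Tle4, a Groucho corepressor gene, Trim62, Aff1, Bmf, a BH3-only gene of apoptosis, and Catspere2. The member in Tle4 had a fold of 9.43, 154 fragments over 15.4. The member in Aff1, a gene of transcription elongation, had the most fragments of the 20, 187 over 19.3, and stood only 264 bases from a region called in all tissues. The other 11 lay 12.6 kb to 349 kb from the nearest protein-coding gene, among them Robo1, Med13l, Zmiz1 and Sox13. The member 349 kb from Robo1, an axon guidance receptor gene, had a fold of 9.72, and the one 12.6 kb from Cylc2 had 9.48. These were respectively 349 kb and 447 kb from the nearest region called in every list, while the median over the 20 was 32.8 kb.

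Gene promoters held a smaller share of trunk-only regions than of regions called in all tissues. A promoter window ran from 250 bases before to 50 bases after a RefSeq gene start. On the 20 chromosomes with such entries, which leave out chromosome 18, 1231 of 33276 members overlapped a window, or 3.70%. The share was 4.41% of all union regions, 5.82% of those called everywhere, 3.08% of trunk-and-brain and 1.204% of brain-only regions. With the trunk summit itself inside the window it was 2.02% for members, 1.66% for trunk-and-brain regions and 3.21% for regions called everywhere. At like trunk rank the order of members and shared regions held below the percentile 60. Between 20 and 40 summits lay in a window for 1.83% of members and 4.94% of shared regions, and between 40 and 60 for 2.25% and 3.31%. The share in any overlap was 4.08% for the 7702 members with a high chance of a call in each list. After thinning it was 3.62% for members and 2.59% for brain-only regions. With a −log10 q of at least 5 these were 3.83% and 3.07%, so the gap to brain-only regions depended on the setting.

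The promoters involved belonged mainly to protein-coding genes. Members overlapped 1456 windows, or 4.43% of the 32851, which belonged to 1340 genes. Of these genes 81.1% were protein-coding, as were 79.5% of those at shared regions and 64.7% of all genes with a window. CpG dinucleotides, which are dense at promoters of broadly expressed genes, had a median of 18.5 per window at members, 20 at shared regions and 7 over all windows. GC content was 59.3%, 60.7% and 52.7% in the same order.

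Tbce led the 15 promoter members by fold, at chr13:14039528-14039948, with 120 fragments over 14.6 and a summit 76 bases before the gene start. Afg1l followed at 7.69, with 136 fragments over 16.8, and Ube2d1 at 7.49. Pkd1l1, a polycystin family gene needed for left-right patterning, had 7.39, with its summit 260 bases after the start. Tfdp2, a dimer partner of E2F factors, had 7.38, with its summit 9 bases after the start. Mfap1b had 7.14 and the start shared by Fastkd2 and Mdh1b had 7.07. The remaining members of the 15 were at Gm29958, Gm38525, 6430590A10Rik, Map10, Ankrd60, Zfp668, Zfp385a and the window of Map3k11 and Pcnx3, with folds from 6.14 to 7.48. Only the promoter of Afg1l among the 15 held the core motif.

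Summits of trunk-only regions did not gather upstream of gene starts, while those of shared regions did. Within 250 bases, 511 trunk-only summits lay upstream and 566 downstream, a ratio of 0.903. For regions called in every tissue these were 1374 and 703, a ratio of 1.95. The ratio was 0.871 for trunk-and-brain regions and 0.692 for brain-only regions, so the missing upstream excess was not particular to members. Within 1000 bases the trunk-only counts were 1282 and 1596, a ratio of 0.803, and the ratio for shared regions was 1.298. In the 100 bases before the start lay 0.622% of trunk-only summits and 1.49% of shared ones, while in the 100 bases after it the shares were 0.727% and 0.719%. The excess upstream of shared regions was found at high ranks. At trunk ranks of 20 to 40 the ratio was 0.818 for members and 0.816 for shared regions, at 40 to 60 it was 1.25 and 1.17, and above 60 it was 2.58 for shared regions, where only 8 member summits lay within 250 bases.

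**Figure D2:**
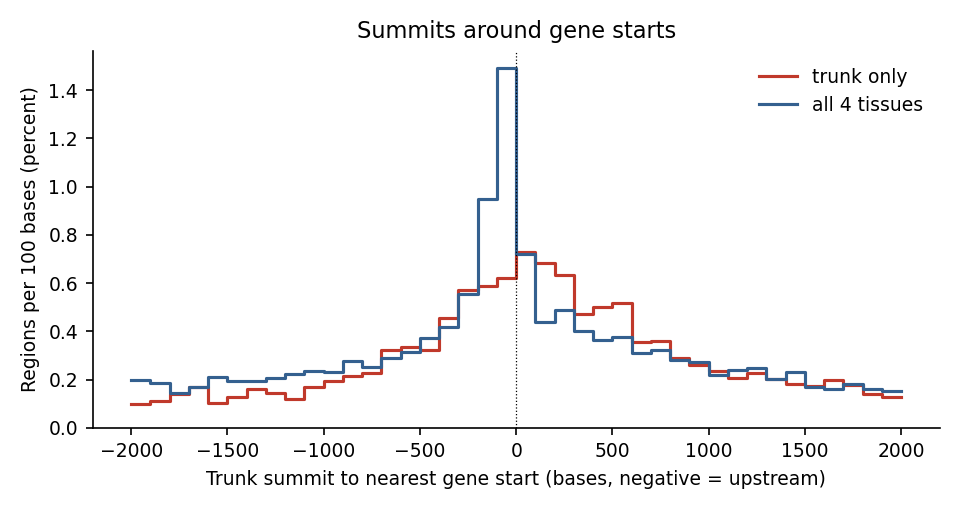
The share of regions (y axis, percent per bin of 100 bases) whose trunk summit lies at a given distance from the nearest RefSeq gene start (x axis, bases along the gene's strand), for trunk-only regions (red) and regions called in all 4 tissues (blue). Shared summits rise to 1.49% in the last 100 bases before the start, where trunk-only summits are at 0.622%.

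The CTCF core motif was less frequent under trunk-only promoter summits than under shared ones, and much of that difference went with rank. Among summits at least 45 bases inside a window, a match within 45 bases was found for 36 of 468 trunk-only summits, or 7.69% (95% exact Clopper-Pearson interval 5.45 to 10.5). For shared regions it was 422 of 1319, or 32.0%, and for trunk and brain 7 of 73, or 9.59%. Over the central 91 bases it was 2.86% for all promoter windows and 4.87% for windows with at least 15 CpG. Between trunk ranks of 20 and 40 the shares were 9.33% of 150 summits for members and 12.7% of 63 for shared regions, with overlapping intervals. Between 40 and 60 they were 12.2% of 74 (5.71 to 21.8) and 21.0% of 205 (15.6 to 27.2). Above the percentile 60 members had only 4 such summits, with 0 matches, and shared regions had 35.8% of 1033. Intervals cover the counting of summits only, and promoters are not replicates of a tissue.

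**Figure D3:**
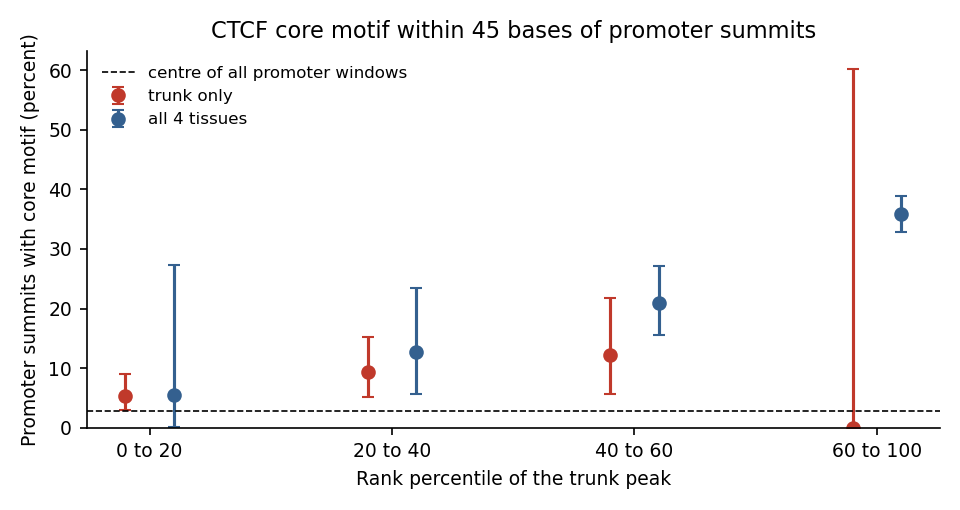
The share of promoter summits with a core motif match within 45 bases (y axis, percent) by rank percentile of the trunk peak (x axis), for trunk-only regions (red) and regions called in all 4 tissues (blue), with bars for 95% exact intervals and a dashed line at 2.86%, the central 91 bases of all promoter windows. The intervals of both classes overlap in each rank group, and the last red point rests on 4 summits. For windows with at least 15 CpG the central 91 bases stand at 4.87%, which is not drawn.

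Counted over whole windows, 174 of the 1456 promoters at members held the core motif, or 11.95%, beside 8.61% of all windows, 14.7% of windows with at least 15 CpG and 25.8% of those at shared regions. With the stricter core these were 1.305%, 1.28%, 2.67% and 7.63%. The members' share by the core motif stood nearer to all windows and to CpG-rich windows than to those at shared regions. Both of those wider sets include promoters at CTCF regions. Windows with no CTCF region in any list, which had a median of 5 CpG, stood lower, at 5.90% by the core motif and 0.404% by the stricter core. Among the 7702 members with a high chance of a call in each list, 14 of 110 promoter summits had a match, or 12.7%, and among the rest 22 of 358, or 6.15%.

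Counting promoter regions too, trunk-only regions lay mostly in genes, as regions called everywhere did. RefSeq gene spans held 60.8% of members, 61.4% of trunk-and-brain regions, 62.4% of shared regions and 49.1% of brain-only regions. In the same order, 14.6%, 13.2%, 18.3% and 9.23% lay within 1 kb of either end of a gene. More than 100 kb from any gene lay 2.96%, 3.31%, 1.53% and 7.60%. Members stood closer to shared regions than brain-only regions did. The median distance to the nearest region called in all tissues was 15.8 kb for members, 13.2 kb for trunk-and-brain regions and 25.1 kb for brain-only regions, and 1673 members, or 4.85%, lay within 1 kb. After thinning the member and brain-only medians were 15.7 and 18.8 kb, and in lists of equal length 14.9 and 14.7 kb, so the gap to brain-only regions narrowed or closed with the setting.

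The positions of members by strength depended on how strength was read. From the lowest to the highest of 4 equal groups by fold, the share in gene spans went from 62.0% to 59.2% and the share within 1 kb of a gene end from 17.3% to 13.1%. Median distance to a shared region went from 14.4 to 18.4 kb, and median width from 230 to 335 bases. Promoter overlap was 4.36% in the lowest group and 3.61% in the highest. By rank on the authors' p the distance went the other way. At ranks of 0 to 20, 20 to 40 and 40 to 60 the median distance was 17.3, 14.4 and 13.6 kb, and promoter overlap was 3.69%, 3.46% and 4.28%.

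By chromosome, the share of trunk regions that were trunk-only ran from 28.8% on chromosome 5 to 36.7% on chromosome 13 among autosomes. The X chromosome was lower, with 742 of 2709, or 27.4%. On Y the count was 5 of 46. Chromosomes 18, 16 and 3 followed chromosome 13 with 35.8%, 35.2% and 35.0%, and chromosomes 11 and 7 stood near the lower end with 30.3% and 30.4%. Each chromosome gives 1 value in 1 library, so this order has no error.

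The longest run of consecutive union regions that were all trunk-only lay over the Hoxd cluster. Having a trunk-only region as direct neighbour was common everywhere. It held for 52.4% of members, 48.0% of all union regions and 44.0% of regions called in all tissues, so the members' share lay near that of all regions. Among the runs, 289 held at least 5 regions. The longest run had 13 regions and spanned 210 kb at chr2:74723082-74933316. It began inside Hoxd4 and Hoxd3, passed Hoxd1, the gene at the end of the cluster expressed earliest, and went on beyond Mtx2, which encodes a mitochondrial protein. Both neighbours of the run were regions called in all 4 tissues. Folds in it ran from 2.07 to 5.90, with a median of 2.97, and the highest of them stood beyond Mtx2 at chr2:74896366-74896904. Between Evx2 and the run most regions were called in all 4 tissues, with folds from 2.43 to 11.8. Only 3 of the 13 had a chance of at least 0.95 of a call in each other list.

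The run was not the longest under other settings. These settings only take peaks away, so what is left in a span chosen as trunk-only has to be trunk-only, and only its number is informative. Of the 13 regions, 10 were left with a −log10 q of at least 5, behind runs of 11 at Khdrbs3 and at Tulp4. After thinning 6 were left, and the longest run was one of 9 at Prkd1. In lists of equal length 2 were left, and no run exceeded 4.

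**Figure D4:**
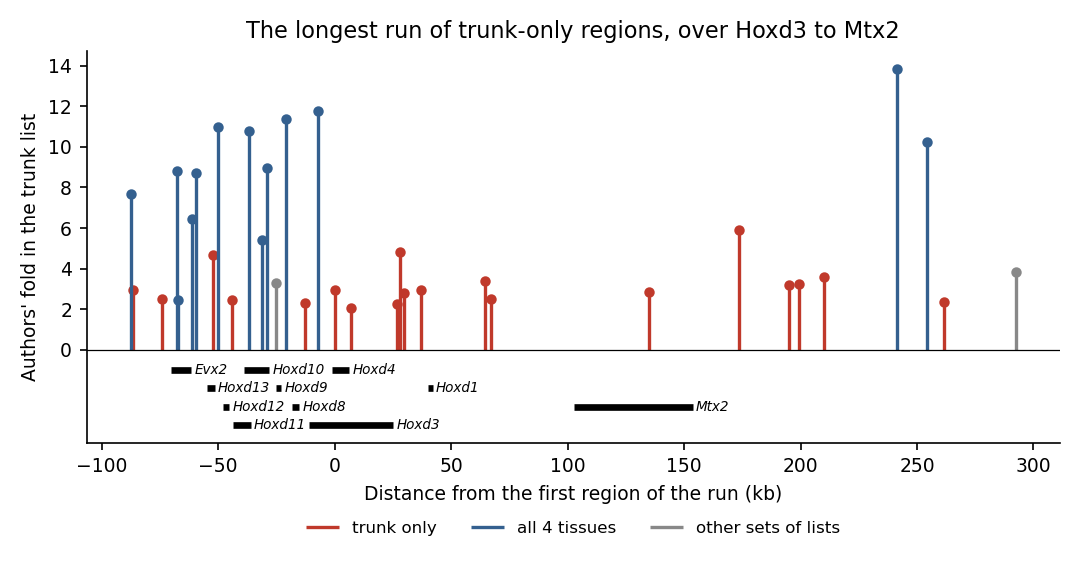
The authors' fold of each trunk region (y axis) by distance from the first region of the run (x axis, kb), in red for trunk only, blue for all 4 tissues and grey for other sets of lists, with protein-coding gene spans as black bars below. The 13 trunk-only regions from Hoxd4 past Mtx2 have folds of 2.07 to 5.90 and no blue region among them.

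The next runs were shorter by at least 3 regions. A run of 10 at chr17:15838238-16147159 lay 6.99 kb from Rgmb, a BMP co-receptor gene, with folds up to 7.24, and another of 10 lay on chromosome 18, 153 kb from Sema6a, a semaphorin gene, with folds up to 5.80. Runs of 9 lay in 3110040M04Rik, over Epha3, an ephrin receptor gene, and in Robo2, an axon guidance receptor gene. The run in Robo2 spanned 226 kb, with a median fold of 2.96 and a highest of 6.84.

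Counted in windows of 1 Mb, members were most numerous in a window that includes the Hoxb cluster among many other genes. The window chr11:96000001-97000000, which holds Hoxb1 to Hoxb13 with Igf2bp1, Skap1 and Cbx1, had 42 trunk-only regions against a median of 13 over 2521 windows with any. It was also rich in shared regions, with 66 of 130, so its trunk-only share was 32.3%, near the 28.4% over all union regions. Within 50 kb of Hoxb3, 11 of 21 regions were trunk-only, and within 50 kb of Hoxb13 1 of 8, so many of the 42 lay farther off. The window at chr17:84000001-85000000, with Zfp36l2 and Thada, had 39 of 91, or 42.9%. Next came 4 windows with 38 each. One, around Zfp703 at chr8:26000001-27000000, had the highest share of these, 44.7%, and a median fold of 3.31. The others held Smg6 and Ywhae, Rcor1 and Traf3, and Tiam1 and Sod1, with 36.5%, 36.9% and 37.3%.

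Gene lists for the trunk and for other tissues were compared by the share of CTCF regions within 50 kb of their genes that were trunk-only, beside 28.2% over the windows of all RefSeq genes. A trunk-only region lay within 50 kb of 75.3% of RefSeq genes and 80.7% of protein-coding genes, so having one was common and the share is the more informative value. The windows of neighbouring genes overlap, and each region was counted once per list. The lists were chosen with earlier results of these data known, and their shares are descriptions without a test.

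Hox and Evx genes, which set position along the body axis, had the highest share. Of 124 regions around the 41 genes, 58 were trunk-only, or 46.8%, and all 41 had one nearby. These genes lie side by side in clusters and share regions, so the 41 are not separate loci. The highest fold was 6.13, at chr15:103002124-103002548 inside Hoxc6, and that region also lay within 50 kb of Hoxc4, Hoxc5, Hoxc8, Hoxc9, Hoxc10 and Hoxc11. The share differed between the genes of the list. Around Hoxc6 14 of 19 regions were trunk-only and around Hoxd1 8 of 9. The 8 around Hoxd1 all belong to the longest run, so the list share and that run rest partly on the same regions. Around Hoxa11 it was 4 of 21, around Hoxa13 3 of 19 and around Evx1 1 of 11. Median fold over the 58 was 2.83, beside 2.92 over all gene windows, so these members were no stronger than others. Of 24 Hox and Evx genes with a promoter entry, 1, Hoxd11, had a member at its own promoter, at a fold of 2.45. After thinning the list share was 32.2%, beside 20.3% over all gene windows, and it was the highest of the lists there and with windows of 10 and 100 kb.

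Intermediate and lateral mesoderm genes followed with 57 of 161 regions, or 35.4%, and a trunk-only region near 14 of 15. The leading members were in Pax2, a transcription factor of the kidney, at 6.51, 16.3 kb from Hand2, a bHLH factor of lateral mesoderm and limb, at 5.51, 6.88 kb from Hoxb7 at 5.20 and in Isl1, a LIM homeobox gene of the hindlimb field, at 4.99. Around Isl1 4 of 5 regions were trunk-only, while around Tbx4 it was 3 of 17 and around Osr1 0 of 4. After thinning the list share was 22.0%, near the 20.3% over all gene windows.

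Tailbud and presomitic mesoderm genes, the cells dissected, had a share of 26.8%, with 96 of 358 regions, although all 30 had a trunk-only region nearby. Nkd1, an inhibitor of Wnt signalling, had one at 31.6 kb with a fold of 7.61, and Greb1 one inside the gene at 7.44, beside a member of fold 4.93 at its own promoter. Cdx4, a caudal homeobox gene, had one at 37.6 kb with 5.78, and Msgn1, a bHLH factor of presomitic mesoderm, one at 29.8 kb with 5.52. Somite and muscle genes had 25.1%, with 18 of 20 genes, led by a region 41.7 kb from Pdgfra at 5.15, and by those in Pax3 at 4.55, 23.3 kb from Myog at 4.52 and in Meox1 at 4.37. Both shares lay under the 28.2% of all gene windows at 50 kb and after thinning. With windows of 10 kb they lay above the 27.9% of all windows, at 29.6% and 34.5%, and with 100 kb the tailbud share was 29.2% beside 28.3%.

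Neural tube genes had 27.9%, or 18.3% with windows of 10 kb, and hindgut and notochord genes 27.7%. The neural tube list was led by regions 46.2 kb from Sox1, at 6.29, 49.3 kb from Nkx2-2, at 5.21, 26.3 kb from Sox2, at 4.68, and 2.03 kb from Neurog1, at 4.56. Epcam, a cell adhesion gene of epithelia, had a region at 21.0 kb with a fold of 6.96, and Noto, a homeobox gene of the notochord, one at 42.2 kb with 5.11. Krt8 had one at 42.6 kb with 4.93 and Cldn6 one at 43.5 kb with 4.79. Epcam and Neurog1 each also had a member at the own promoter, both at 3.05.

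Lists for tissues outside the trunk did not stand lower as a group. Forelimb genes had 30.1%, and 24.9% after thinning, next to Hox genes, with members near 27 of 30, led by one in Gli3, an effector of Hedgehog signalling, at 6.73, one 43.5 kb from Tbx3 at 6.06 and those in Tbx15 at 5.86 and Sall4 at 5.67. Fgf10 and Lhx9 had members at their own promoters, at 4.06 and 2.41. Telencephalon genes had 28.8%, with members near 28 of 30, led by one 5.06 kb from Otx2 at 5.54, one in Six3 at 5.26, one 31.4 kb from Gsx2 at 5.15 and one 45.7 kb from Dlx2 at 5.08. The region near Gsx2 is the one near Pdgfra. Blood and endothelial genes had 31.2%, with members near all 15. These were led by one 48.2 kb from Gata1 at 5.95 and one 31.3 kb from Hbb-bh1, an embryonic globin gene, at 5.23. Next were one 1.70 kb from Tek at 5.13 and one 24.8 kb from Lmo2 at 4.19. The content of blood and endothelial cells in the dissected tissues is not known, and their part in the regions was not tested.

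Housekeeping genes had the lowest share of the lists at 50 kb, 21.7%, with 76 of 350 regions, while 58.3% of their regions were called in all tissues against 36.3% around Hox genes. Members lay near 28 of 30, among them one 15.9 kb from Snrpd3 at 5.42, one 5.90 kb from Psmb4 at 4.99 and one 40.6 kb from Eef2, a translation elongation factor gene, also at 4.99. Rps18, a ribosomal protein gene, had a member at its own promoter at 3.25. Their median fold, 3.00, was above that of Hox genes. They were also lowest after thinning, at 16.4%, and with windows of 100 kb, while with 10 kb neural tube and hindgut genes lay lower.

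**Figure D5:**
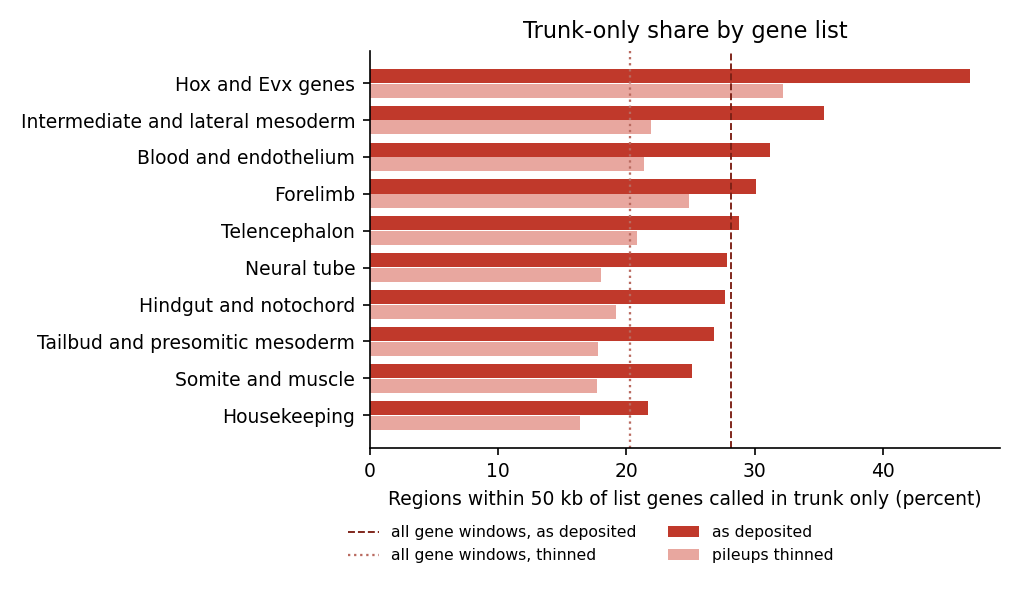
The share of CTCF regions within 50 kb of the genes of each list that were called in trunk only (x axis, percent), as deposited (dark bars) and after pileups were thinned to equal background (light bars), with lines for the windows of all RefSeq genes. Hox and Evx genes stand at 46.8% and 32.2%, and housekeeping genes at 21.7% and 16.4%.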

How the data were processed

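CTCF ChIP-seq peaks of 4 tissues were used, with 1 library per tissue. The submitters' processing notes name mm10 and, in no stated order, MACS2 2.1.1.20160309 (a peak caller), Bowtie2 2.3.5, SAMtools 1.9 and cutadapt 1.16. Options, and whether an input control was used, are not given in the sources. Each row of the deposited narrowPeak lists holds the authors' fold, a ratio of summit pileup to local background, the authors' −log10 p and −log10 q, and a deposited score, which is 10 times the −log10 q without decimals. The lists hold no read totals, so absolute depth is unknown.

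From these, rows with the same interval were merged, chromosomes 1 to 19, X and Y were kept, and peaks sharing 1 base were joined. Whole pileups and backgrounds were recovered from fold and p and differed from the deposited −log10 p by no more than 0.000309. Relative depth was the lowest background of each list. Thinning drew each pileup binomially. The chance of a call scaled pileup and background by relative depth. These steps were tested on simulated data. Folds and ranks describe peaks within the trunk list only.

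Genes and promoter sequence came from RefSeq GRCm38.p6, and all listed symbols were matched. Motifs were searched on both strands. The named items are, by fold, the 20 highest members, the 15 highest in promoters and up to 4 genes per list. They also include the 5 longest runs and the 5 densest 1 Mb windows, ties kept, and the 5 widest, 3 weakest and 3 most closely neighboured members. One gene that the rule names is not reported here. The members, lists and rules were chosen with earlier results of these data known. Python 3.11.15, numpy 2.4.6, pandas 2.3.3, scipy 1.17.1 and matplotlib 3.10.9 were used.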

Additional observations from a re-analysis of the deposited data

Results flagged for a closer look

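Sequences outside chromosomes 1 to 19, X and Y entered no comparison. On unplaced and unlocalised sequences, 20 of 103 posterior trunk peaks had no peak of another list, which drew attention as signal in data that was not used. That share was below the 32.4% of trunk regions that were trunk-only on the chromosomes used. On the mitochondrial sequence this held for 0 of 4. No untreated or input library was analysed beside them.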

How the results depend on the processing

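The trunk-only count went from 34525 to 19252 after thinning and 5456 in lists of equal length. It stayed within 1.5 times under the other 6 settings, between 27728 and 47184. The share in promoters, 3.70% as deposited, was 4.24% in lists of equal length, 2.02% with the summit inside the window and 4.08% for members with a high chance of a call. The promoter motif share, 11.95%, was 1.305% with the stricter core and 7.69% within 45 bases of the summit. The median distance to a shared region, 15.8 kb, was 16.3 kb with a −log10 q of at least 5, 14.9 kb in lists of equal length and 13.4 kb for members with a high chance of a call. After thinning, the list shares were 32.2% for Hox, 17.8% for tailbud, 17.7% for somite, 18.05% for neural tube, 19.2% for hindgut, 22.0% for intermediate mesoderm, 24.9% for forelimb, 20.8% for telencephalon, 21.4% for blood and 16.4% for housekeeping genes, beside 20.3% over all gene windows. With windows of 10 kb, somite genes had 34.5% and neural tube genes 18.3%. Beyond the fewer peaks that thinning and equal length leave by construction, the cause was not tested. The summit motif count and the values for members with a high chance were added after seeing the data. The chance of a call at the same occupancy was under 0.5 in at least one other list for 21.5% of members. No paired analysis was possible because every tissue is represented by a single library.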
